A study of Mus musculus with 75 samples.

Results

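The occupancy of CTCF was compared between pro-metaphase and ana/telophase in mouse G1E-ER4 cells, using the deposited peak lists of both stages. A pro-metaphase and an ana/telophase peak were matched if they shared at least 1 bp. Ana/telophase peaks with a match are called kept, those without one gained, and pro-metaphase peaks without a match lost. The 2 lists hold 44731 peaks, 11604 from pro-metaphase and 33127 from ana/telophase, out of 181220 CTCF peaks at all 6 stages of the series and 246850 peaks for CTCF and Rad21 together. They come from 5 of the 75 samples, 3 CTCF replicates in pro-metaphase and 2 in ana/telophase.

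G1E-ER4 is an immature erythroid line, a subline of the G1E proerythroblasts that lack GATA1, of strain 129; both stages carry the same genotype and the labels name no induction of erythroid maturation for them. Pro-metaphase cells were collected after 7 to 8.5 h in 200 ng/ml nocodazole, a drug that blocks the mitotic spindle, with 0 min of release, and ana/telophase cells after the same block and 25 min of release. Early G1 (60 min), mid G1 (120 min), late G1 (240 min) and asynchronous cells, with 2 CTCF replicates each, were used to follow the peaks further, and Rad21 lists with 2 replicates per stage and ana/telophase Hi-C features from 2 replicates were used to place them. All cells are of 1 line, which limits the results to it, and the peak and contact lists contain no marker of the cell type.

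CTCF is a zinc-finger protein that binds a long DNA motif in a fixed orientation. In interphase it stops the cohesin ring, which extrudes chromatin loops, and the stalled ring leaves a loop between 2 CTCF sites, a boundary between contact domains, or a stripe of contacts that runs from 1 anchored side. Condensed mitotic chromosomes lose loops and domains and most of their cohesin from the arms, and both are rebuilt as cells enter G1. Rad21 is a subunit of the cohesin ring.

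Because all replicates of a stage went into 1 list, no value has a spread between replicates and no comparison has a replicate test. Ranges in parentheses after shares are exact 95% binomial intervals, those after medians are order-statistic 95% intervals, and those after differences of shares are Newcombe 95% intervals; all cover counting error only, and peaks are not independent replicates. The lists give no read totals, so depth is unknown. A site that carries no pro-metaphase peak may be unbound there or bound below the calling threshold, and these cannot be told apart. Coordinates are 1-based and refer to mm9. Fold enrichment at the summit is the authors' own value and was used to describe or rank peaks within their own list; where values of 1 site from several lists stand side by side, they describe each list and are not read as a change, since depth is unknown. A rank percentile of 100 is the strongest peak of its list.

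Nearly every CTCF site called in pro-metaphase was still called in ana/telophase, and most ana/telophase sites had no pro-metaphase peak. Of the 11604 pro-metaphase peaks, 11586 were kept, or 99.8% (99.8 to 99.9). They fell on 11541 ana/telophase peaks, 34.8% of that list. The other 21586 ana/telophase peaks, 65.2% (64.6 to 65.7), were gained. Only 18 pro-metaphase peaks, 0.155% (0.0920 to 0.245), were lost. The kept peaks formed 11590 overlapping pairs, of which 11484 were one-to-one; 49 ana/telophase peaks covered 2 pro-metaphase peaks and 4 pro-metaphase peaks covered 2 of the later ones.

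Later steps of the time course exchanged peaks in both directions. From ana/telophase to early G1 12.0% of peaks (11.7 to 12.4) were lost and 13.7% of the early G1 list was gained. The shares lost were 4.73% from early to mid G1, 10.8% from mid to late G1 and 8.93% from late G1 to asynchronous cells, with 10.6%, 4.01% and 8.35% gained. The first step stands at the low end of loss and the high end of gain. The pro-metaphase list is also the shortest, 11604 peaks against 33127 to 36009 in the others, and its part in the difference between steps was not tested. With the ana/telophase list limited to its 11604 strongest peaks, 78.6% of pro-metaphase peaks were kept, 2485 were lost and 2532 were gained.

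The overlap rule left few peaks near its edge. The smallest overlap of a kept pair was 9 bp, and 3 of the 11590 pairs overlapped by less than 50 bp, while the median was 244 bp. On the other side of the rule, 4 lost peaks lay 84, 116, 145 and 193 bp from the edge of an ana/telophase peak. The pro-metaphase peak lay wholly inside the ana/telophase peak in 86.3% of pairs (85.6 to 86.9). When the overlap had to cover 50% of both peaks, 77.7% were kept.

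Strength within the ana/telophase list separated the classes almost completely at its ends. For kept peaks the fold enrichment was 35.3 in the median, with quartiles of 27.2 and 43.5, and they had a median rank percentile of 81.2 (80.7 to 81.6). For gained peaks it was 13.9, with quartiles of 9.87 and 20.3, at a median percentile of 33.1 (33.1 to 33.8). The list was split by fold enrichment into 10 groups of equal size, numbered from 1 for the weakest to 10 for the strongest. The kept share was 1.09% in group 1 and 1.09% in group 2, then 2.99%, 6.58%, 14.4%, 27.5%, 45.8%, 65.7% and 85.9% in groups 3 to 9, and 97.4% (96.8 to 97.9) in group 10. Kept and gained peaks were about equal in number in group 7, at fold enrichments of 23.7 to 28.4. Group 10 runs from 42.3 to 77.9, while no gained peak exceeded 54.9. Comparisons below at like or equal strength are within such groups, or weighted by them, and strength can still differ inside a group.

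**Figure D1:**
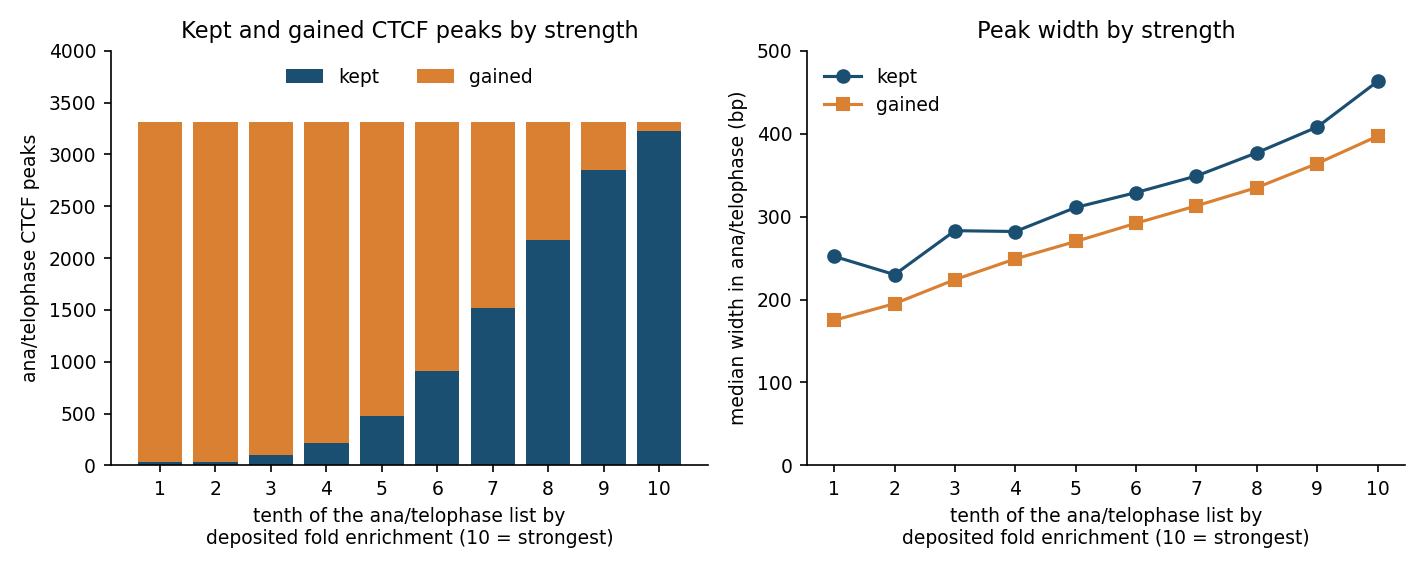
Left, number of kept (blue) and gained (orange) ana/telophase CTCF peaks in each of 10 equal groups of the list by fold enrichment (10 is the strongest); right, median width in bp of both classes in the same groups. Kept peaks went from 36 in group 1 to 3228 in group 10, and their median width was above that of gained peaks in all 10 groups.

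The exceptions at both ends were few. In group 10 there were 85 gained peaks among 3313, and in group 1 there were 36 kept peaks among 3313. Those 36 weak kept peaks were mostly weak in pro-metaphase as well, at a median percentile of 17.5 (10.0 to 35.7) in that list. The strongest gained peak, at chr13:102489481-102489950, had a fold enrichment of 54.9, a percentile of 98.3 in ana/telophase, and carried Rad21 from ana/telophase on; it was called in every later CTCF list, at percentiles of 93.7 to 98.3. The second, at chr10:25859168-25859794, had a fold enrichment of 54.3 (percentile 98.1) in ana/telophase, with Rad21 peaks from mid G1. The third, chr5:86495497-86495988, had a fold enrichment of 53.0 and Rad21 at all stages from ana/telophase. The fourth, chr10:80024394-80024826, had 51.8, lay 5408 bp from a domain boundary and on a loop anchor, in a cluster of 5 peaks. The fifth, chr18:70811754-70812213, had 51.5 and is the only one of the 5 with a Rad21 peak already in pro-metaphase. All 5 were found again in early, mid and late G1 and in asynchronous cells, as were 98.8% of the 85 gained peaks of group 10.

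The 18 lost peaks were weak in pro-metaphase. Their fold enrichments ranged from 5.56 to 11.5, with a median of 8.42 (7.05 to 9.46), against 13.7 (13.5 to 14.0) for the kept peaks of that list. The median percentile was 14.3 and the highest 38.6. They were narrow too, with a median width of 196 bp (165 to 232) against 245 bp (243 to 247). None carried Rad21 in pro-metaphase or ana/telophase. In pro-metaphase only 3.21% of kept sites did, so at that stage the lack of Rad21 does not set the 18 lost peaks apart. After ana/telophase the lost peaks divided: 8 were present in all 4 later lists, 8 in none, and 2 in asynchronous cells only.

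The strongest lost peak, chr13:110526609-110526809, had a fold enrichment of 11.5 in pro-metaphase and lay 22693 bp from any ana/telophase peak. It was called again in early G1, with a fold enrichment of 32.2 in that list, was called in mid and late G1 and in asynchronous cells, and carried Rad21 in the last 2. The next, chr10:50418941-50419136 (10.3 in pro-metaphase), also reappeared in all 4 later lists, at 13.0 to 25.7. The third, chr10:96079404-96079615 (10.0), was in no later list. The fourth, chr9:96473734-96473950 (9.71), was called in early G1, with a fold enrichment of 27.3 and a Rad21 peak, and in mid G1 at a percentile of 95.3 of that list. The fifth, chr12:20808042-20808203 (9.46), did not return. Thus 3 of the 5 were missing from the ana/telophase list alone among the 6 lists.

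Kept peaks were wider in ana/telophase than in pro-metaphase, and wider than gained peaks of like strength. Over the one-to-one pairs the median width was 245 bp (243 to 247) in pro-metaphase and 398 bp (396 to 400) in ana/telophase. The median difference within a pair was 142 bp (140 to 144), 93.6% of pairs (93.1 to 94.0) were wider in ana/telophase, and 21.7% were at least 2 times as wide. The added width was symmetric, with a median of 67 bp on the lower-coordinate side and 68 bp on the other. The width of a MACS2 peak moves with its fold enrichment within a list, as the groups by strength show, and its part in the difference between lists was not tested.

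Within the ana/telophase list the median width was 399 bp (396 to 401) for kept and 249 bp (247 to 250) for gained peaks. Gained peaks in ana/telophase were thus about as wide as kept peaks had been in pro-metaphase. Within the groups by fold enrichment the gap was smaller. Kept peaks had the larger median in all 10 groups, for example 349 against 313 bp in group 7. In group 10, where kept peaks reach strengths that no gained peak has, it was 463 against 397 bp. Averaged over the groups in the proportions of the kept peaks, the medians came to 395 bp for kept and 347 bp for gained peaks.

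**Figure D2:**
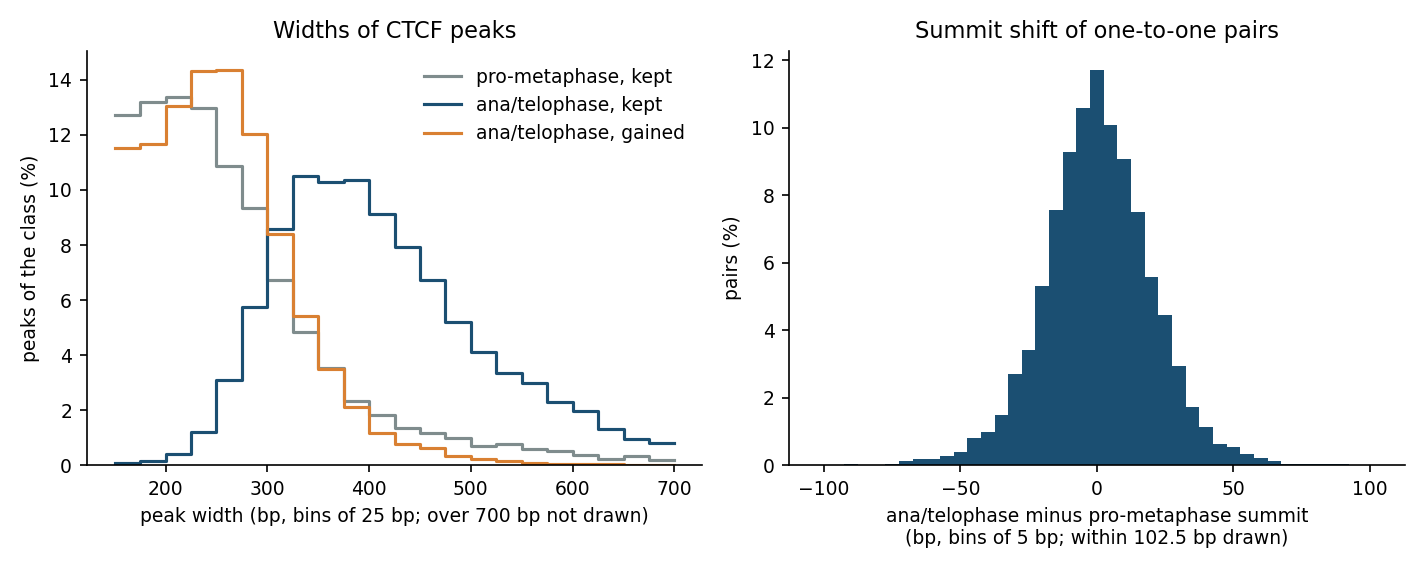
Left, share of peaks (%) in each width bin of 25 bp for kept peaks in pro-metaphase (grey), the same class in ana/telophase (blue) and gained peaks (orange); right, signed distance in bp between the summits of one-to-one pairs, as a share of pairs (%). The grey and orange curves lie close together, with medians of 245 and 249 bp, the blue curve is shifted to a median of 399 bp, and the summit shifts centre on 0.

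The summit, which marks the position of highest signal, stayed in place. Its absolute shift over the one-to-one pairs had a median of 12 bp (12 to 13) and quartiles of 6 and 22 bp, and the signed shift had a median of 0 bp. The shift was at most 25 bp in 81.6% of pairs (80.9 to 82.3), at most 50 bp in 97.4% and at most 100 bp in 99.7%. It was smaller for stronger peaks: from the weakest to the strongest 25% of the pro-metaphase list, in steps of 25%, the medians were 15, 13.5, 12 and 10 bp. The median is of the same size as the distance of a summit from the middle of its own peak, 11.5 bp in pro-metaphase and 13 bp in ana/telophase.

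A shift of over 100 bp was seen in 37 pairs, whose ana/telophase peaks were wide, with a median of 749 bp (572 to 805). The largest, 929 bp, was in the peak at chr5:125750929-125752399, which was 1471 bp wide in ana/telophase, 1573 bp in pro-metaphase and near the top of both lists (percentiles 99.0 and 97.7). The second, 807 bp, was at chr1:159006294-159007701, a peak 1408 bp wide with Rad21 at both stages. The third, 510 bp, was at chr4:46387388-46388270, where a weak pro-metaphase peak of 168 bp (percentile 1.03) lay under an ana/telophase peak of 883 bp (percentile 86.0).

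The order of strength was only partly shared between the stages. Across the 11484 one-to-one pairs, the fold enrichments of both lists had a Spearman rho of 0.508 and a Pearson r of 0.490 on the log2 scale, given as a description since these are peaks of 2 pooled lists. Ranked among the pairs alone, which makes the lists equally long, the median pair differed by 18.3 percentile points, and 9.04% (8.52 to 9.58) differed by over 50 points. Of the pairs in the strongest 25% of pro-metaphase peaks, 53.7% were in the strongest 25% in ana/telophase and 6.49% in the weakest 25%. Of those in the weakest 25%, 45.6% stayed there and 5.83% were in the strongest.

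The pair that stood highest in ana/telophase relative to pro-metaphase was chr3:92802557-92803005, at percentiles among the pairs of 0.736 and 95.3 (fold enrichments of 5.45 and 54.9 in their lists). Next was chr15:97614265-97614923, at 2.59 and 95.3, a peak of 154 bp in pro-metaphase and 659 bp in ana/telophase. The third was chr8:87261380-87261866, at 3.17 and 93.6. All 3 carried Rad21 in ana/telophase and none in pro-metaphase. All 3 belong to group 10 by ana/telophase strength, where 62.2% of kept peaks carried Rad21 in ana/telophase. Of all kept peaks, 3.21% carried it in pro-metaphase. The 3 pairs are thus not set apart by their Rad21 peaks.

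At the other extreme, chr3:101297615-101298269 stood at 97.9 in pro-metaphase and 3.93 in ana/telophase, with fold enrichments of 50.8 and 16.6 in those lists and 45.4 in that of early G1. It carried Rad21 at all stages. The next, chr11:50257106-50257689, stood at 93.2 and 3.54. The third, chr4:152037301-152038098, stood at 92.3 and 4.43, and had fold enrichments of 9.25 to 17.7 in the later lists. In the whole lists of each stage the first of these pairs stood at percentiles of 41.9 in ana/telophase and 94.5 in early G1, and the third at 43.5 and 36.2.

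Most gained peaks were found again in G1 and in asynchronous cells, though less often than kept peaks. Early G1 peaks were found at 82.1% of gained peaks (81.6 to 82.6) and at 99.1% of kept peaks (98.9 to 99.2), against 88.0% of all ana/telophase peaks. For mid G1 the shares were 81.7% and 98.5%, for late G1 76.2% and 97.7%, and for asynchronous cells 80.4% and 99.4%. All 4 later lists held 70.6% of gained (69.9 to 71.2) and 97.4% of kept peaks, against 79.9% of the whole ana/telophase list. None of them held 11.6% of gained (11.2 to 12.0) and 0.477% of kept peaks, against 7.72% of the whole list.

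The gap between the classes was concentrated among weak peaks. With gained peaks weighted to the groups by fold enrichment of the kept ones, the early G1 share of gained peaks was 98.6% and the share in all 4 later lists 96.7%, values set mostly by the strong groups, where nearly all peaks of both classes were found. At like strength weak kept peaks were in all 4 later lists more often than weak gained ones: 66.7% (49.0 to 81.4) against 41.0% (39.3 to 42.7) in group 1, 80.6% against 49.4% in group 2 and 73.7% against 62.0% in group 3. The interval of this difference left out 0 in 5 of the 10 groups, with the kept share higher in each. These were groups 1 to 4 and group 10. In group 10 all 3228 kept and 84 of 85 gained peaks were in all 4 lists, so that difference rests on 1 peak. The 2502 gained peaks in no later list were weak and narrow, with a median percentile of 13.2 (12.7 to 14.1) and a median width of 194 bp (192 to 196). The 15230 gained peaks in every later list had medians of 41.7 and 268 bp.

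One strong peak departs from this. The strongest gained peak in no later CTCF list, chr15:61820537-61822383, had a fold enrichment of 49.2 (percentile 95.6) and is, at 1847 bp, the widest of all gained peaks. It lay on an ana/telophase loop anchor, 21185 bp from a domain boundary and 6202 bp from the nearest kept summit, and carried Rad21 in ana/telophase and early G1 only. The next such peaks were weaker: chr13:57090227-57090524 had a fold enrichment of 29.3 and chr15:101418734-101419001 had 23.4, and neither carried Rad21 at any stage.

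Cohesin was present at kept peaks more often than at gained ones at each stage. In pro-metaphase 3.21% of kept (2.89 to 3.54) and 0.454% of gained sites had a Rad21 peak. In ana/telophase the shares were 39.3% (38.4 to 40.2) and 11.2% (10.8 to 11.6), against 21.0% of all ana/telophase CTCF peaks. They were 42.1% and 15.3% in early G1, 60.4% and 29.3% in mid G1 and 56.5% and 24.9% in asynchronous cells. In late G1 they were 68.3% (67.5 to 69.2) and 35.2% (34.6 to 35.9). The Rad21 share moved with CTCF strength in both classes, from 2.81% in group 1 to 46.4% in group 9 for gained peaks. Weighted to the strength of the kept peaks, 36.8% of gained peaks carried Rad21 in ana/telophase and 64.1% in late G1, so the differences of 28.1 and 33.1 points became 2.49 and 4.21. Differences remained in single groups, with the kept share higher in each: the interval left out 0 in 2 of the 10 groups for ana/telophase Rad21 and in 3 for late G1 Rad21. In ana/telophase the group 1 shares were 8.33% (3 of 36) for kept and 2.81% for gained peaks. In late G1 the shares were 38.9% against 20.4% in group 1, 45.4% against 37.7% in group 5 and 84.4% against 71.8% in group 10. In group 10 the ana/telophase shares were 62.2% (60.5 to 63.9) for kept and 50.6% (39.5 to 61.6) for the 85 gained peaks. Kept peaks of group 10 reach a fold enrichment of 77.9 and gained ones 54.9, so strength is not equal within it. Its part in the group 10 differences was not tested.

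Called CTCF peaks were closer together in the longer ana/telophase list, and within it gained peaks were farther from a neighbour than kept ones. That list holds 33127 peaks against 11604 and nearly all pro-metaphase sites, so shorter distances follow from its length. The median distance from a summit to the nearest other summit of the same list was 28171 bp (27066 to 29399) in pro-metaphase and 11537 bp (11290 to 11749) in ana/telophase. In ana/telophase it was 9652 bp (9332 to 9955) for kept and 12694.5 bp (12368 to 12969) for gained peaks. From a gained peak the nearest gained summit was closer, at a median of 20291.5 bp, than the nearest kept one, at 40780 bp; gained peaks are also 65.2% of the list. Another summit lay within 10 kb of 51.1% of kept (50.1 to 52.0) and 43.9% of gained peaks (43.3 to 44.6), against 46.4% of all. A kept summit lay within 10 kb of 20.5% (20.0 to 21.0) and within 1 kb of 1.95% of gained peaks. The closest gained summit was 264 bp from a pro-metaphase summit.

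Neighbouring kept summits were a median of 68721 bp (66218 to 71233) apart, and 37.1% (36.2 to 38.0) of these 11521 intervals received no gained peak. The most in 1 interval was 33. Gained peaks were densest where kept peaks were close together: 31.4 per Mb in intervals of up to 10 kb, 22.4 from 10 to 100 kb, 10.6 from 100 to 1000 kb and 3.07 in longer ones. The longest interval without a kept peak was chrX:110017449-130269720, which received 13 gained peaks. It was followed by chrX:23142917-33537174, with 3, and chr7:38989517-47942591, with 9.

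With summits linked whenever they lay within 10 kb, 15378 ana/telophase peaks formed 5985 clusters of at least 2. Clusters with both classes made up 54.0% (52.7 to 55.2), gained peaks only 34.1% (32.9 to 35.3) and kept peaks only 12.0% (11.2 to 12.8). In 92.3% (91.3 to 93.2) of the mixed clusters the strongest peak was a kept one. Kept peaks also stood higher in the whole list, at a median percentile of 81.2 against 33.1. The share that this difference alone would give was not computed. The kept share was 31.8% of peaks outside clusters, 37.5% in clusters of 2, 38.5% in those of 3 to 4 and 41.3% (39.1 to 43.7) in those of 5 or more. The median percentile moved alongside, at 46.8, 52.5, 54.7 and 57.2.

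Peaks next to a kept peak were kept slightly more often, and less so at equal strength. Over the whole list 37.8% of peaks whose nearest neighbour was kept were themselves kept, against 33.2% of those with a gained neighbour, a difference of 4.64 points (3.56 to 5.71). Within the 10 groups by fold enrichment the interval of this difference left out 0 in groups 7 (4.38 points) and 9 (2.77 points) and included it in the other 8.

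The largest cluster, chr17:35671317-35728218, held 13 peaks in 56.9 kb, 7 kept and 6 gained. Every kept peak in it was stronger than every gained one, with a lowest kept fold enrichment of 25.9 and a highest gained one of 19.2; 4 of the 13 were in no later list. A cluster at chr2:28433550-28495665 had 4 kept and 7 gained peaks, and all 11 were found in early G1. The cluster at chr10:126749371-126788048 had 3 kept and 8 gained peaks, of which 8 of the 11 lay within 20 kb of a boundary and 9 on a loop anchor. In both of these clusters at least 1 gained peak was stronger than the weakest kept one.

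The clusters with most gained and no kept peaks held 7 each. The one at chr4:41653009-41662964 spanned 9.96 kb, with fold enrichments of 8.84 to 25.8, and 6 of its peaks were found in early G1. The one at chr5:127357269-127399450 had 4 peaks in no later list. At chr6:72296382-72330757, 3 of the 7 peaks were near a boundary. Of 2387 windows of 1 Mb with an ana/telophase peak, 420 (17.6%, 16.1 to 19.2) had gained peaks only. The 3 of these with most gained peaks are given next. Because they were chosen for having no kept peak, a count below that given by strength was fixed in advance. Window chr14:53000001-54000000 had 17 gained and no kept peaks, where the strength of its peaks would give 3.37 kept ones. Windows chr9:115000001-116000000 and chrX:71000001-72000000 had 15 and 13 gained peaks and no kept one, where strength would give 1.15 and 1.76. Of the 15 on chromosome 9, 8 were in no later list.

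The kept share was lower on the X chromosome than on any autosome. It ranged over the autosomes from 30.6% (27.8 to 33.5) on chromosome 16 to 37.4% (35.5 to 39.5) on chromosome 1, and was 35.1% over all of them. On the X it was 24.2% (21.2 to 27.4), or 190 of 785 peaks. X peaks were weaker in ana/telophase, with a median percentile of 39.3 (36.7 to 41.2) against 50.3 (50.0 to 50.8) on autosomes. The share that the groups by fold enrichment would give was 23.2% for the X, inside the observed interval. For chromosomes 1 and 5 it was 33.5% and 32.4%, below the observed intervals, and for chromosome 11 it was 38.2%, above.

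**Figure D3:**
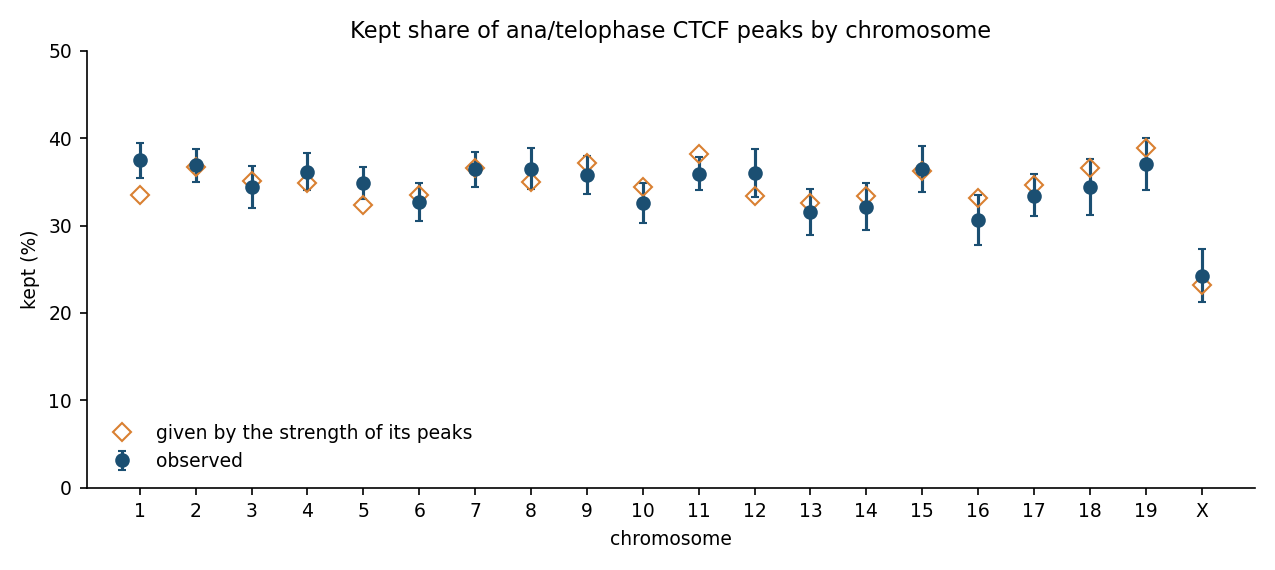
Kept share (%) of ana/telophase CTCF peaks on each chromosome, with exact 95% binomial intervals (blue), and the share given by applying the kept share of each of the 10 groups by fold enrichment to that chromosome's peaks (orange diamonds). The X, at 24.2%, lies below all autosomes, and its diamond, at 23.2%, lies within its interval.

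Domain boundaries were the distinct ends of 5531 ana/telophase contact domains, 7414 positions in all, of which 2538 matched a boundary of the pro-metaphase list within 20 kb and 4876 were new. Kept peaks lay within 20 kb of a boundary in 25.9% of cases (25.1 to 26.7) and gained peaks in 19.8% (19.2 to 20.3), against 21.9% of all ana/telophase peaks and 9.74% of 10 kb bins of the genome between the outermost peaks. The difference was 6.11 points (5.15 to 7.07). Both classes lay near boundaries more often than the bins did. The density of kept peaks was 13.3 per Mb within 10 kb of a boundary and 2.08 per Mb beyond 200 kb, and that of gained peaks 18.3 and 4.77, so that the kept share went from 42.2% (40.7 to 43.7) to 30.3% (29.3 to 31.3). Inside a domain lay 68.7% of kept and 65.1% of gained peaks, against 45.3% of bins.

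At equal strength the boundary shares were close. Weighted to the groups by fold enrichment of the kept peaks, 25.0% of gained peaks lay within 20 kb of a boundary, which leaves 0.892 points. In none of the 10 groups did the interval of the difference leave out 0; in group 10 the shares were 29.6% and 28.2%, and in group 8 they were 26.6% and 24.0%.

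Seen from the boundary, 35.1% (34.1 to 36.2) had a kept peak within 20 kb, 24.3% gained peaks only and 40.5% no ana/telophase CTCF peak. Boundaries also called in pro-metaphase had a kept peak more often than new ones, 41.6% (39.7 to 43.6) against 31.8% (30.5 to 33.1), a difference of 9.82 points (7.50 to 12.1). Gained peaks only were found at 26.1% and 23.4%, and no peak at 32.3% and 44.8%, so the former had a CTCF peak of either class more often. The boundaries were not matched for the number or strength of nearby CTCF peaks, and the part of these in the difference was not tested. For 10 kb bins the shares were 13.9% with a kept peak, 17.1% with gained peaks only and 69.0% with none. Seen from the peaks, 10.7% of kept and 8.06% of gained ones lay near boundaries also called in pro-metaphase. This was a difference of 2.64 points (1.97 to 3.31). Near new boundaries lay 15.6% and 12.1%, a difference of 3.56 points (2.77 to 4.36).

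Among the 908 ana/telophase loops, whose anchors are 10 to 50 kb wide, an anchor overlapped 7.24% of kept (6.77 to 7.72) and 5.73% of gained peaks (5.42 to 6.05), against 6.25% of all ana/telophase peaks and 1.38% of 10 kb bins. The difference was 1.50 points (0.946 to 2.08). This order turned at equal strength: weighted to the kept peaks' strength, 11.0% of gained peaks lay on an anchor, a kept minus gained difference of -3.72 points. The turn came from the strong end. In group 10, 16 of 85 gained peaks (18.8%, 11.2 to 28.8) and 313 of 3228 kept peaks (9.70%, 8.70 to 10.8) were on an anchor, and in group 9 the shares were 11.1% (8.41 to 14.3) and 7.59% (6.65 to 8.63). In the other 8 groups the interval of the difference included 0.

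**Figure D4:**
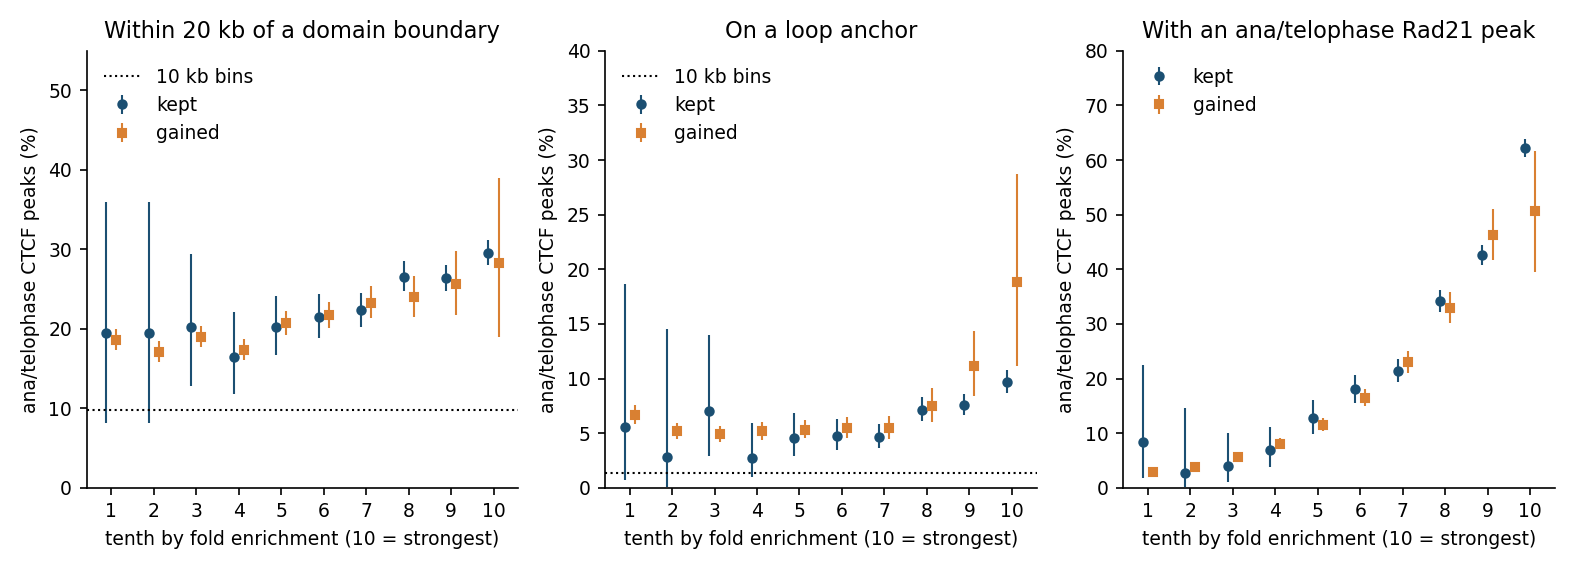
Share (%) of kept (blue circles) and gained (orange squares) ana/telophase CTCF peaks within 20 kb of a domain boundary, on a loop anchor, and with an ana/telophase Rad21 peak, in each of 10 equal groups by fold enrichment, with exact 95% binomial intervals; dotted lines give the share of 10 kb bins (9.74% and 1.38%). All 3 shares are higher in the strong groups for both classes, and kept and gained points lie close together except for loop anchors in groups 9 and 10 and Rad21 in groups 1 and 10.

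Each loop was then assigned by the CTCF peaks on its 2 anchors, an anchor with any kept peak counting as kept and one with gained peaks only as gained. Kept peaks were at both anchors of 193 loops, 21.3% (18.6 to 24.1), and a kept and a gained-only anchor were paired in 200. Gained-only anchors were paired in 67 loops. A kept anchor faced an anchor without CTCF in 129, and a gained-only anchor did in 155. No CTCF peak lay on either anchor of 164 loops. At least 1 gained-only anchor was present in 46.5% (43.2 to 49.8) of all loops. Of the 1816 anchor ends, 39.4% (37.1 to 41.7) held a kept peak, 26.9% (24.9 to 29.0) gained peaks only and 33.7% none. Among 10 kb bins, 4.29% held a kept peak and 6.90% gained peaks only. Anchors had a median width of 20 kb, so they are often wider than a bin.

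Most loops shared with pro-metaphase had no CTCF peak on either anchor. Of the 84 ana/telophase loops also called in pro-metaphase, 51 had no CTCF peak and 17 had a gained-only anchor facing none, while 4 had kept peaks at both anchors. Of all 908 loops, 22.1% (19.5 to 25.0) had Rad21 at both anchors. Rad21 was present at both anchors of 68.4% (61.3 to 74.9) of the loops with kept peaks at both, 31.0% (24.7 to 37.9) of kept with gained-only, and 7.46% (2.47 to 16.6) of gained-only with gained-only. These classes were not matched for CTCF strength, with which the Rad21 share moved, and its part was not tested. A kept anchor can hold gained peaks as well. The ratio of deposited observed to expected contacts had medians in these 3 classes of 3.38 (3.19 to 3.56), 3.34 (3.17 to 3.44) and 3.60 (3.19 to 3.95), with overlapping intervals. Their anchors were a median of 130, 120 and 120 kb apart, against 80 kb for loops with no CTCF peak.

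**Figure D5:**
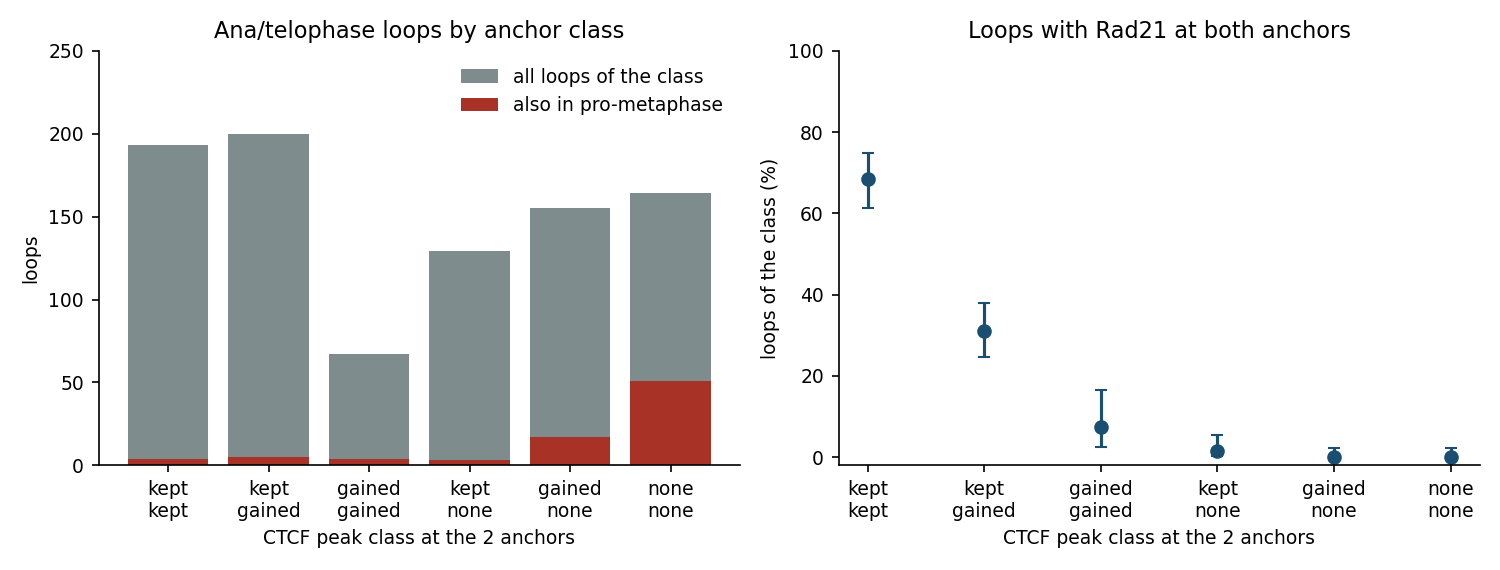
Left, number of ana/telophase loops by the CTCF peak class at the 2 anchors (grey) and how many of them were also called in pro-metaphase (red); right, share (%) of each class with a Rad21 peak at both anchors, with exact 95% binomial intervals. The share with Rad21 goes from 68.4% for kept with kept to 7.46% for gained with gained, against 22.1% of all loops. The classes are not matched for CTCF strength. Of the 164 loops without CTCF, 51 were also called in pro-metaphase.

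The loops with the highest observed to expected ratio among those with gained-only anchors were also in the pro-metaphase list. The first joined chr1:175700001-175730000 and chr1:175840001-175870000 at a ratio of 13.5, with 1 CTCF peak on each anchor, at percentiles of 35.5 and 16.4 and without Rad21. The other two shared the downstream CTCF peak chr12:117042009-117042211, of fold enrichment 9.34, and had ratios of 10.7 and 10.3, also without Rad21. Among loops with kept peaks at both anchors the highest ratio, 15.9, joined chr10:22190001-22220000 and chr10:22280001-22300000, and this loop too was called in pro-metaphase. The next, at 8.09, joined chr4:88510001-88530000 and chr4:88760001-88780000 over 260 kb, had Rad21 at both anchors and 3 and 2 CTCF peaks, and was not called in pro-metaphase. The third, at 7.49, joined chr2:121280001-121300000 and chr2:121320001-121340000 without Rad21.

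Stripe anchors, of which 307 stripes gave 304 distinct ones, overlapped 1.53% of kept (1.31 to 1.77) and 0.820% of gained peaks (0.704 to 0.949), against 1.07% of all ana/telophase peaks and 0.148% of 10 kb bins. The difference was 0.705 points (0.460 to 0.970). Weighted to the kept peaks' strength it turned to -0.706 points, and in no group by strength did its interval leave out 0; group 10 held 4 gained peaks on a stripe anchor. Of the 307 stripes, 131 (42.7%, 37.1 to 48.4) had a kept peak on the anchor, 88 (28.7%) gained peaks only and 88 none. Among 10 kb bins, 4.29% held a kept peak and 6.90% gained peaks only, though some anchors are wider than a bin. Over all 307 stripes, Rad21 was on the anchor of 41.4% (35.8 to 47.1). It was on 76.3% (68.1 to 83.3) of the anchors with a kept peak, 29.5% (20.3 to 40.2) of those with gained peaks only and 1.14% of those without CTCF. The anchors were not matched for CTCF strength, and its part in these shares was not tested. Measured over the stripe body, which need not touch the anchor, median lengths were 220, 200 and 210 kb in these 3 classes, with overlapping intervals.

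By the length of the stripe body, the longest stripe on a gained-only anchor was anchored at chr3:94240001-94260000. Its body, chr3:94430001-95180000, was 750 kb long and did not begin at the anchor. Its single CTCF peak, chr3:94245165-94245389, had a fold enrichment of 11.3 and no Rad21 peak lay on the anchor. The second, 580 kb, was anchored at chr7:52950001-52980000 with 2 CTCF peaks, and the third, 550 kb, at chr1:162130001-162150000 with 1. The strongest CTCF peak on each of the 3 anchors was called in all 4 later lists, as were 70.6% of all gained peaks.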

How the data were processed

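CTCF and Rad21 peaks were taken from 1 deposited list per stage. Its peak names state that replicates were merged and downsampled. The submitters' processing notes name, for ChIP-seq, MACS2 2.1.0, Bowtie 0.12.7, bedtools 2.27.1 and SAMtools 1.7, for Hi-C HiC-Pro and Bowtie2, and the build mm9. Of the deposited values per peak, the fold enrichment (a ratio), the −log10 q and the summit were used; the authors' smallest −log10 q was 5.40 in pro-metaphase and 6.71 in ana/telophase. Deposited loop lists hold a signal of observed contacts, the contacts expected and a p-value, and deposited stripe lists a strength ratio. The sources used here do not name the callers of domains, loops and stripes.

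SciPy 1.17.1, pandas 2.3.3, NumPy 2.4.6 and Python 3.11.15 served to compute overlaps, distances, ranks and intervals, and overlap functions were tested on simulated data against bedtools 2.31.1. Boundaries and loops were matched between stages within 20 kb. The background bins of 10 kb run from the first to the last ana/telophase peak of each of 20 chromosomes. For weighted values, gained shares in 10 equal groups by fold enrichment were averaged in the proportions of the kept peaks, an alternative chosen after seeing the data. Members and rules were chosen with earlier results of these data known. Regions were named as the strongest, widest-shifted, most re-ranked, most clustered or longest of their kind, 3 or 5 each. Gene names and sequences are not used here, because the annotation at hand is of another build.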

Additional observations from a re-analysis of the deposited data

How the results depend on the processing

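No paired analysis was possible because each list pools its replicates and carries no replicate numbers. For the same reason no replicate could be left out. Of 65 alternative values, 31 stayed within the counting interval of the reported value (or within 1.5 times of a count). Another 31 moved beyond it with the same sign and 3 changed sign. Only kept minus gained differences could change sign, since counts, shares and the absolute summit shift cannot be negative. The cause of the moves was not tested. No peak is narrower than 153 bp, so a minimum of 150 bp changed nothing. With an overlap of 50% of both peaks, 77.7% of pro-metaphase peaks were kept and 2592 lost, kept minus gained differences were 124 bp in width, 43.8 percentile points, 4.71 points for boundaries, 0.676 for loop anchors and 0.335 for stripe anchors, and 17.0% of gained peaks lay within 10 kb of a kept one and 83.9% were found in early G1. With summits within 100 bp, 99.1% were kept and 104 lost. At a −log10 q of at least 20 in both lists (9303 and 29572 peaks), 11 were lost, the differences were 145 bp and 46.8 percentile points, 17.6% of gained peaks lay within 10 kb of a kept one and 88.7% were found in early G1. With the ana/telophase list limited to 11604 peaks, 78.6% were kept, 2532 gained and 2485 lost, the differences were 80 bp, 35.7 percentile points, 2.57 points for boundaries, -0.0873 (-1.33 to 1.06) for loop anchors and 0.432 (-0.153 to 0.912) for stripe anchors, 21.3% of gained peaks lay within 10 kb of a kept one and 99.9% were found in early G1. The share of gained peaks near a kept one was 11.9% at 5 kb and 33.1% at 20 kb. The boundary difference was 4.26 points at 10 kb and 4.91 for domains in no larger domain, and the stripe difference was 1.02 with anchors widened by 10 kb. Weighted to equal strength, an alternative added after seeing the data, the differences were 0.892 points for boundaries, -3.72 for loop anchors and -0.706 for stripe anchors. The median summit shift was 12 bp under every alternative run. Peak calling depth is unknown for both stages, so counts of gained peaks cannot be separated from depth.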
